A study of Drosophila melanogaster with 3 samples.

Results

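The genes for eukaryotic translation initiation factors were examined for sites of the zinc finger protein CG8159 in Drosophila pupae. All protein-coding genes of the Ensembl annotation of dm6 whose symbol is eIF followed by a digit were taken, which gave 44 of the 13945 protein-coding genes on the arms that held peaks. The rule uses the symbols alone, but the group was chosen with earlier results of these data known. The sites came from 1 group of 3 biological replicates of whole pupae aged 24 hours, males and females together. The flies were of a transgenic line that carries CG8159 fused at its C terminus to eGFP, the tag that the antibody recognised in the chromatin immunoprecipitation (ChIP-seq), although the antibody field of the labels names CG8159. All peak lists rest on the same control file, per the deposited file lists. Nothing in the labels gives the promoter that drives the fusion or its level, all replicates share 1 line, and whole animals mix all cell types. There is no second condition, so every comparison is between genes, lists or replicates.

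Initiation factors bring the small ribosomal subunit, the initiator tRNA and the messenger RNA together and position them at the start codon. eIF1, eIF1A and the many-subunit eIF3 act on the small subunit, eIF2 carries the initiator tRNA and is recharged with GTP by eIF2B, and the eIF4 factors bind the cap and unwind the message. eIF5 and eIF5B take part in start codon commitment and subunit joining, and eIF6 keeps the large subunit from joining too early. Most of these genes are active in nearly every cell, and several have paralogs used in the male germ line of the fly.

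The sequences under 6 of the stronger sites are shown first, to let the range of composition at these promoters be seen. Each line gives the summit base and the 50 reference bases on either side of it (dm6, Release 6 assembly, RefSeq sequence), read 5′ to 3′ on the strand of the initiation factor gene. Windows that touch an annotated UTR were left out. Capitals mark the only match here to the motifs searched, the DNA replication-related element (DRE).
eIF4EHP, 236 bp upstream, chr3R:24109146-24109246, minus strand: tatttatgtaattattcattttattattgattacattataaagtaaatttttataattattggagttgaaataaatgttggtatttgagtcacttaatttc
eIF3h, 292 bp downstream of the inner start in an intron, chr2L:5052438-5052538, minus strand: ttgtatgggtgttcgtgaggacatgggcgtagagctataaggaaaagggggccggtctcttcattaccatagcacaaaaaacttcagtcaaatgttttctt
eIF1, 299 bp upstream, chr3L:3222992-3223092, plus strand: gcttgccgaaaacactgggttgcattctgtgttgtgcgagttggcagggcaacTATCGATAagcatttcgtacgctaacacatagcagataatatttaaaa
eIF4H1, 156 bp downstream in an intron, chrX:16448771-16448871, plus strand: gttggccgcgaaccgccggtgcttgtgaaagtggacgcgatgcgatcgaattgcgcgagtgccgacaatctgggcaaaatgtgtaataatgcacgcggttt
eIF2D, 99 bp upstream, chr3R:29151843-29151943, minus strand: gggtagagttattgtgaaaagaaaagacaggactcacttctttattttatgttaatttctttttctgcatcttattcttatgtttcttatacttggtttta
eIF1, 86 bp upstream, chr3L:3223205-3223305, plus strand: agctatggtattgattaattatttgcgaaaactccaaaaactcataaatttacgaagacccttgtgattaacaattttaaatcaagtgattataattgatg

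The share of A or T in these windows was 83.2% at eIF4EHP, 56.4% at the eIF3h intron, 57.4% and 73.3% at the eIF1 sites, 44.6% in the eIF4H1 intron and 72.3% at eIF2D. Over all 14 summits at eIF promoters the median was 57.9%, with a range from 36.6% to 83.2%. Over the 2904 summits at promoters of all protein-coding genes it was 68.3%, and over the stretch from 150 to 50 bp upstream of every coding gene 63.4%. The strongest eIF site was thus also the one richest in A and T, and the second site of eIF4H1 the poorest.

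The motifs, searched on both strands, were found at few eIF summits. The DRE, TATCGATA, was in 1 of 14 windows (7.14%), that of the upstream eIF1 site, against 1.24% of all coding promoter summits and 2.62% of all coding promoters. Its shorter form CGATA, which any DRE contains, was in 2 of 14 windows (14.3%), at eIF1 and eIF5B, against 14.8% of summits and 20.4% of promoters. The GAGA factor sequence GAGAG was in 1 window (eIF4G2, against 11.6% of summits and 13.4% of promoters). The E-box CACGTG was also in 1 window (eIF4A, against 0.654% and 0.990%). The core of Motif 1, GGTCACACT, was in 0 of 14 (0.999% of summits and 1.05% of promoters), as was the E-box CAGCTG (2.96% and 5.02%). With 14 windows, a single match moves a share by 7.14 percentage points.

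A gene was called occupied when the summit of a peak lay within 500 bp of any annotated start site of its coding transcripts. The main list holds 10239 peaks that passed a threshold on the irreproducible discovery rate (IDR), a measure of how well peak ranks repeat between replicates. It and the pooled list were made from the same 3 replicates, so the lists are not independent. The strongest IDR site at each occupied eIF gene had the same signal and rank in the pooled list. Of the 44 initiation factor genes 11 were occupied in the IDR list (25.0%, 95% Wilson interval 14.6 to 39.4, counting error only), against 22.9% of all protein-coding genes. This share is near that of all genes, and the interval spans it. Among the IDR peaks that the strongest 10239 peaks of every replicate overlap, 10 were occupied (22.7%), against 18.3% of all. In the list called on the pooled replicates, which holds 30000 peaks, 16 were occupied (36.4%), against 37.1%.

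The shares in the single replicates were also close to those of all genes. Among the strongest 10239 peaks of each, 12 eIF genes were occupied in replicate 1 (27.3%), 14 in replicate 2 (31.8%) and 12 in replicate 3 (27.3%). All protein-coding genes gave 24.8%, 23.7% and 22.7% in the same order. The means were 28.8% ± 2.62 for eIF genes and 23.7% ± 1.03 for all genes (SD, n = 3). With all 30000 peaks of each replicate, 20, 21 and 15 eIF genes were occupied (45.5%, 47.7% and 34.1%), against 40.7%, 39.7% and 36.9%. The eIF share was above that of all genes in 5 of these 6 replicate lists and below it with all peaks of replicate 3, and in each list the interval on the eIF share spanned the value of all genes.

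**Figure D1:**
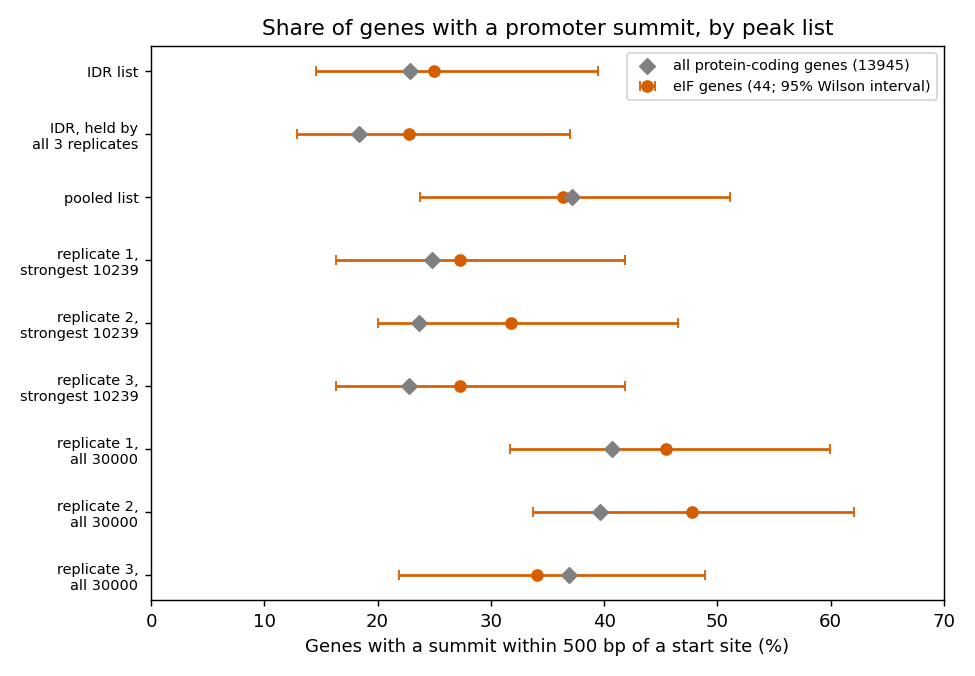
Share of genes with a summit within 500 bp of a start site (x axis, percent) in each peak list (y axis), for the 44 eIF genes (orange, with 95% Wilson intervals that cover counting error only) and all 13945 protein-coding genes (grey diamonds). The grey value lies within the orange interval in all 9 lists, which run from 22.7% beside 18.3% for IDR peaks held by all 3 replicates to 47.7% beside 39.7% with all peaks of replicate 2.

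Within the set, the occupied genes were spread over the stages of initiation. Of the small subunit factors, eIF1 was occupied and eIF1A was not. In the eIF2 group 2 of 5 were occupied, eIF2D and eIF2beta, and none of the 5 subunits of eIF2B was. Of the 16 genes with eIF3 symbols, paralogs included, 2 were occupied, eIF3h and eIF3m. The eIF4 group had 4 of 13, namely eIF4EHP, eIF4G2, eIF4H1 and eIF4A. eIF5B was occupied and eIF5 was not, and eIF6, the only gene of its group, was. The share over all coding genes was 22.9%. These groups, made by symbol, are small, and their counts are descriptions with no test.

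The strongest of these sites lay at eIF4EHP, which encodes a cap-binding protein that represses translation because it does not recruit the eIF4G scaffold. The peak on 3R at 24108926 to 24109432 had its summit at 24109196 and a signal of 10836 in the units of the authors' peak caller, rank 17 of the IDR list. Its rank was 15 in replicate 1, 21 in replicate 2 and 11 in replicate 3, with signals of 4439, 2899 and 3557, and the replicate summits lay within 5 bp of each other. Signal scales differ between lists, so ranks are the comparable quantity. The site stood among the highest of every replicate, and among the 3190 occupied coding genes only 10 had a stronger promoter summit. It lies between divergent genes. It is 236 bp upstream of eIF4EHP and 140 bp upstream of CG18428, whose start is nearer, and it was lost to eIF4EHP when a summit counted only for the gene of the nearest start.

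The gene for eIF6, the anti-association factor of the large subunit, held the next site. Its peak on 2R at 23850220 to 23850578 had a signal of 4420 and rank 224, with the summit 97 bp upstream of the only start site. The ranks were 317, 149 and 198 in replicates 1, 2 and 3 (signals 1526, 1483 and 1434), and the replicate summits lay within 9 bp. The summit falls in an exon of the antisense RNA gene asRNA:CR45928, whose start, 68 bp away, is nearer than that of eIF6.

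No other initiation factor gene came near these values. The IDR signals at the remaining 9 occupied genes, taken at the strongest promoter summit, lay between 263 and 974. The median over the 11 genes was 703, and over all occupied coding genes 663 (quartiles 378 and 1349). Of the 11, 2 were at or above the upper quartile of all occupied genes, 6 above the median and 2 below the lower quartile. In the replicates the ratio of the eIF median to the median of all occupied genes was 1.20, 0.976 and 0.807, a mean of 0.995 ± 0.199 (SD, n = 3), so the small excess in the IDR list (a ratio of 1.06) was within the spread between replicates. It turned to a deficit, 502 against 614, when summits had to lie within 250 bp.

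**Figure D2:**
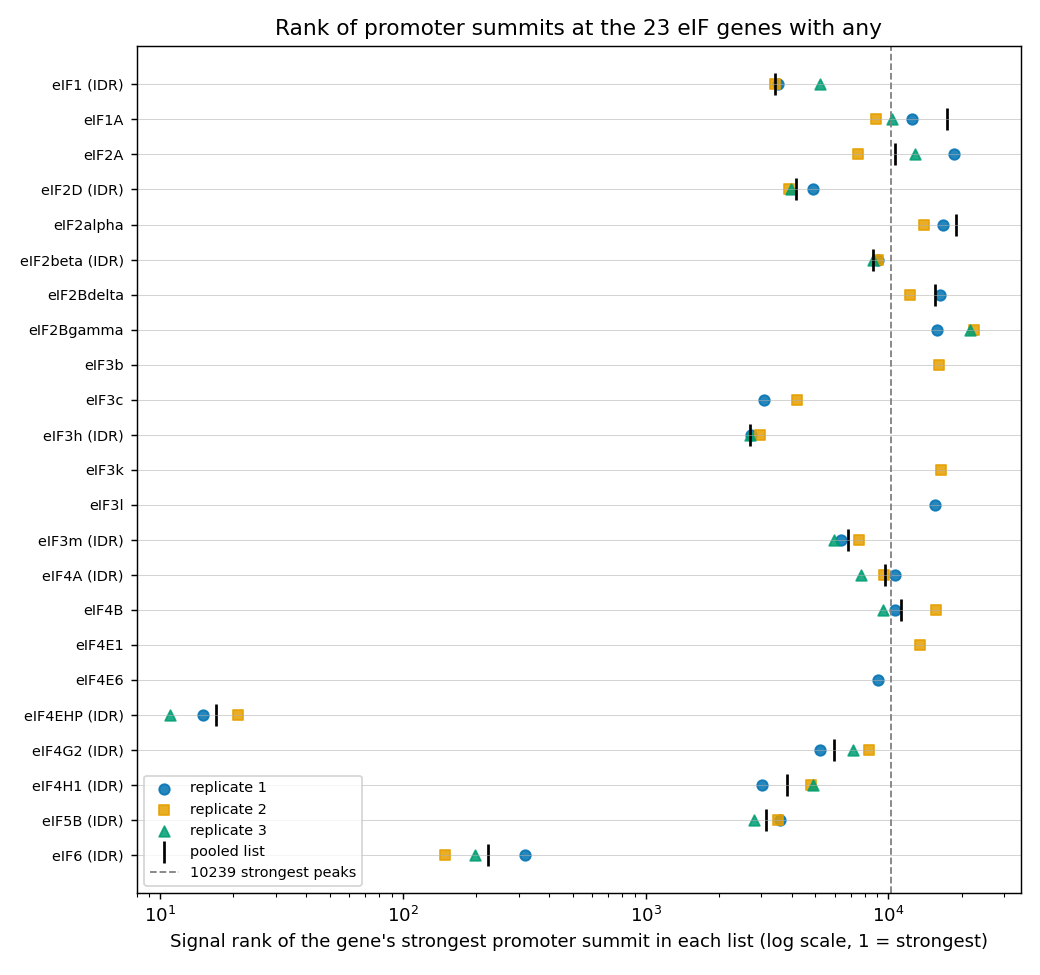
Signal rank (x axis, log scale, 1 is strongest) of the strongest summit within 500 bp of a start site for the 23 eIF genes (y axis) that have any, in replicates 1, 2 and 3 (circle, square, triangle) and the pooled list (bar), with IDR-listed genes marked and the dashed line at rank 10239. eIF4EHP (ranks 11 to 21) and eIF6 (149 to 317) stand apart from the rest in every list, and eIF3c has symbols for replicates 1 and 2 alone.

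At the small subunit factors, eIF1, which keeps the scanning ribosome from starting at wrong codons, had a pair of IDR summits in the space it shares with the ribosomal protein gene RpL28, whose divergent start lies 381 bp away. The stronger, on 3L at 3222917 to 3223123 with signal 781, is 299 bp upstream of eIF1 and 82 bp upstream of RpL28. The nearest replicate peaks ranked 3513, 3414 and 5232. The weaker, at 3223047 to 3223462 with signal 502, is 86 bp upstream of eIF1, with replicate ranks of 4508, 8597 and 5232. Replicate 3 had only 1 peak over the 2 positions, with its summit 55 bp from the weaker and 268 bp from the stronger site. eIF1A, a partner of eIF1 on the small subunit, was in the pooled list with signal 128 (rank 17394) and, of the replicates, reached the strongest 10239 peaks in replicate 2 (rank 8911, against 12448 and 10377 in replicates 1 and 3).

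Of the initiator tRNA factors, eIF2D, which can deliver tRNA outside the eIF2 pathway, was occupied on 3R at 29151685 to 29152100, 99 bp upstream of its start, with signal 642. Its replicate ranks were 4867, 3889 and 3952, and the replicate summits lay within 8 bp. eIF2beta, a subunit of the eIF2 trimer, had a weak site on 3L at 12526547 to 12526962, 24 bp upstream, with signal 298. It ranked 9071, 9043 and 8635 in the replicates, close to the last of the strongest peaks in each. The replicate 2 summit lay 218 bp from the IDR summit, and those of replicates 1 and 3 lay 17 and 19 bp away on the other side.

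Of the other eIF2 genes, eIF2A, another factor linked to tRNA delivery, had a pooled site of signal 236. That is just under the lowest IDR signal of 246. In replicates 1, 2 and 3 its summits ranked 18543, 7461 and 12840. eIF2alpha, the subunit whose phosphorylation lowers translation under stress, had a pooled site of signal 114. It also had summits in replicates 1 and 2 (ranks 16842 and 14039) and none in replicate 3. eIF2gamma, the GTP-binding subunit, had no promoter summit in any list. Among the exchange factor subunits, eIF2Bdelta had a pooled site of signal 148 and summits in replicates 1 and 2, and eIF2Bgamma had summits in all replicates (ranks 15799, 22531 and 21733) but none in the pooled list. eIF2Balpha, eIF2Bbeta and eIF2Bepsilon had none in any list.

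In the eIF3 complex, eIF3h held a pair of sites on 2L, both downstream of the nearest of its start sites. The stronger (5052337 to 5052576, signal 974) lies 292 bp downstream of the inner start in an intron, and ranked 2725, 2971 and 2688 with replicate summits within 3 bp. The weaker (5052481 to 5052896, signal 412) lies 91 bp downstream of the same start in coding sequence, with replicate ranks of 5720, 14682 and 6859, so that replicate 2 stood lowest. Both are also upstream of the divergent gene senju, at 355 and 154 bp. eIF3m had a site on 2R at 14164622 to 14165037 with signal 388, 5 bp upstream of its start and 221 bp upstream of CG8323, and ranked 6367, 7567 and 5977.

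The other 14 eIF3 genes had no IDR site. The lists differed at eIF3c, where a summit ranked 3071 in replicate 1 (signal 361, 7 bp upstream) and 4186 in replicate 2 (signal 188, 58 bp upstream), while replicate 3 and the pooled list had no summit within 500 bp. Replicate 2 alone had summits at eIF3b and eIF3k (ranks 16221 and 16539), and replicate 1 alone at eIF3l (15605). eIF3a, eIF3d1, eIF3e, eIF3f1, eIF3g1, eIF3i and eIF3j, and the paralogs eIF3d2, eIF3f2 and eIF3g2, had none in any list.

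Among the cap and helicase factors, eIF4H1, whose product stimulates the eIF4A helicase, had a pair of sites on X. The stronger (16448678 to 16448894, signal 703) lies 156 bp downstream of the first start, and ranked 3013, 4806 and 4904. The weaker (16448817 to 16449232, signal 292) lies 127 bp upstream of the second start, with replicate ranks of 5682, 9008 and 14765. eIF4G2, an eIF4G paralog with a role in spermatogenesis in the fly, was occupied on 3R at 23818844 to 23819259 (signal 448, 185 bp downstream, replicate ranks 5204, 8303 and 7123). That site lies in a 5′ UTR that eIF4G2 shares with CG33111, since the start positions are the same.

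The helicase gene eIF4A itself was the weakest occupied member. Its site on 2L at 5981566 to 5981981, 10 bp downstream of a start, had signal 263 and IDR rank 9652. The overlapping replicate peaks ranked 12325, 11131 and 7715, so the site was among the strongest 10239 in replicate 3 alone, although the 3 summits lay within 8 bp. Replicate 2 had a separate summit 41 bp upstream of a start with rank 9578. Its partner eIF4B had a pooled signal of 221 (rank 11220) and ranks of 10668, 15706 and 9485. Of the cap-binding genes, eIF4E1, the main form, had summits in replicate 2 alone (best rank 13517) and eIF4E6 in replicate 1 alone (best rank 9029). The paralogs eIF4E3, eIF4E4, eIF4E5 and eIF4E7, the scaffold gene eIF4G1 on chromosome 4 and eIF4H2 had none in any list.

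Of the late factors, eIF5B, the GTPase of subunit joining, had a promoter site on 3L at 3460681 to 3460875 with signal 854. It lies in the 5′ UTR, 157 bp upstream of the inner of its start sites, and ranked 3560, 3520 and 2792, with replicate summits within 29 bp. eIF5, which triggers GTP hydrolysis by eIF2, had no promoter summit in any list. In all, 21 of the 44 genes had none in any of the 5 lists, 5 were in the pooled but not the IDR list, and 7 appeared in replicates alone. These combined counts were not made over all coding genes. In the pooled list alone 36.4% of eIF genes and 37.1% of all coding genes had a promoter summit.

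Replicate support was above that of all coding promoters by overlap and below it by summit position, and neither difference was tested. Of the 14 eIF promoter summits, 13 (92.9%) lay in IDR peaks that the strongest peaks of all 3 replicates overlapped, against 78.1% of the 2904 summits at all coding promoters. At eIF1, eIF3h and eIF4H1 the paired IDR peaks overlap each other, so a replicate peak can count for both sites. The nearest replicate 2 peak at the weaker eIF3h site ranked 14682, and the nearest replicate 3 peak at the weaker eIF4H1 site 14765. Neither is among the strongest peaks of its replicate, yet both sites counted as held by all 3. Whether such pairs account for the higher eIF share was not tested. When all replicates had to have a summit of such a peak within 100 bp of the IDR summit, the shares were 9 of 14 (64.3%) and 69.2%. The 5 lost were the stronger eIF1 site, the weaker eIF3h and eIF4H1 sites, eIF2beta and eIF4A. The distance between the outermost replicate summits had a median of 27.0 bp at eIF promoters and 40.0 bp at all coding promoters that overlapped a peak of every replicate.

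By position, eIF summits were upstream of the nearest start of the gene in 9 of 14 cases (64.3%), against 81.1% for all coding genes, with median positions of −55 and −149 bp. The replicates gave 70.5% ± 7.77 and 81.5% ± 1.49 (SD, n = 3). The lower eIF share came from 5 summits in 4 genes, eIF3h, eIF4H1, eIF4G2 and eIF4A, and was not tested. With the outermost start of each gene as the only one, the shares were 53.8% and 78.6%. All eIF summits lay within 299 bp of a start. The next nearest members, outside the limit of 500 bp, were eIF2Bbeta at 685 bp and eIF2Bdelta at 783 bp.

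**Figure D3:**
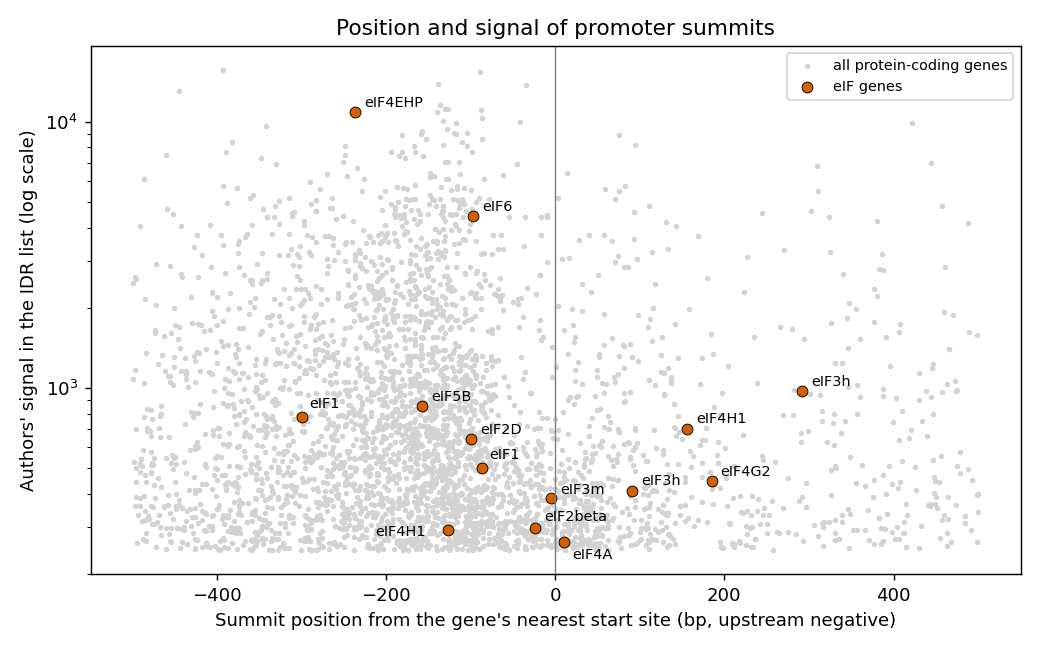
Position of each IDR promoter summit from the nearest start of its gene (x axis, bp, upstream negative) and its signal as given by the authors (y axis, log scale), for eIF genes (orange, labelled) and all protein-coding genes (grey). Of the 14 eIF summits 9 lie upstream, and eIF4EHP (10836) and eIF6 (4420) lie above the other 12, which range from 263 to 974.

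A divergent neighbour, here a coding gene on the other strand whose start lies within 500 bp upstream, was more frequent among eIF genes (18 of 44, 40.9%) than among all coding genes (27.4%), a difference that was not tested. Of the 18, 6 were occupied (33.3%), against 37.1% of all divergent coding genes, and of the other 26, 5 (19.2%), against 17.5%. The share of occupied genes within each class was thus close to that of all genes of the class. The summits at eIF1, eIF3h, eIF3m, eIF4EHP and eIF4G2 lay within 500 bp of a start of another coding gene too, so these sites cannot be assigned to the initiation factor alone.

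Sites within the gene and away from its start occurred at 2 eIF genes, eIF5B and eIF4EHP, which are the longest of the 44. Such sites were not counted over all coding genes, so whether this is many or few for genes of such length is not known. In the whole annotation 610 coding genes are longer than eIF5B and 363 are longer than eIF4EHP. In eIF5B, 32320 bp long, 7 further IDR summits lay in introns. Their signals ran from 387 to 2514 with a median of 629, and 6 of them lay in peaks held by all 3 replicates. The highest, on 3L at 3444306 to 3444868, lay 16391 bp from the 5′ end of the gene and exceeded the promoter site of 854. In eIF4EHP, 45884 bp long, 5 further summits had signals from 278 to 617, all far under the promoter site. Of these, 4 lay in introns and 1 in the 5′ UTR of Syx1A, a syntaxin gene nested in it, 100 bp from the Syx1A start. The other eIF genes had no such summit, and the median length over all 44 was 1967 bp, against 2166 bp for all coding genes.

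**Figure D4:**
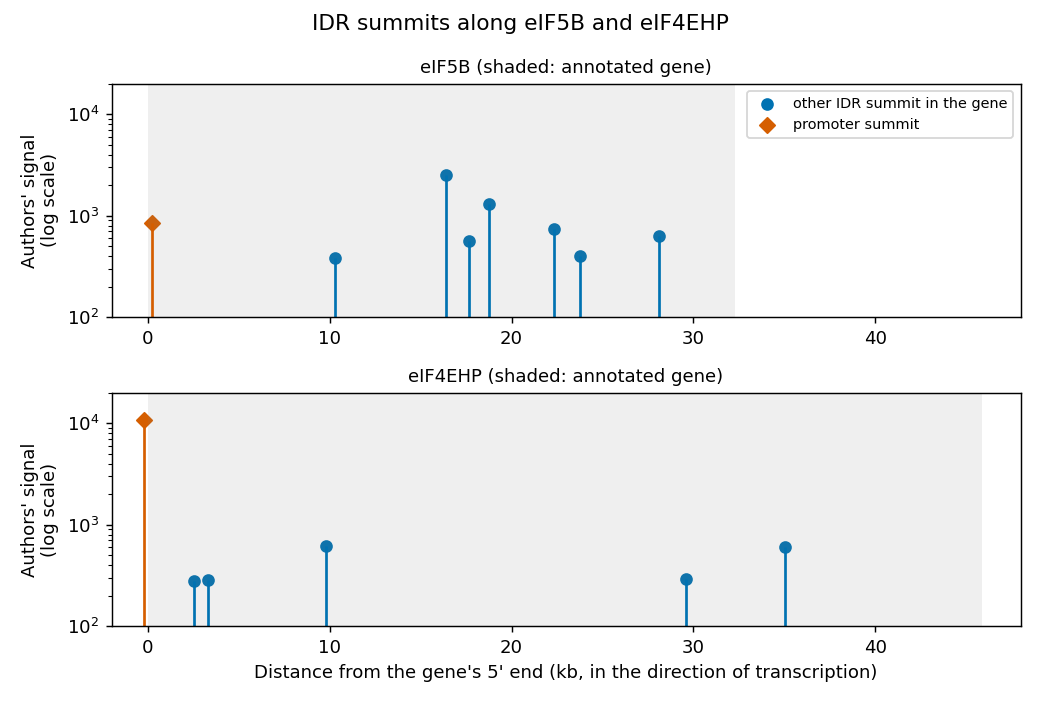
IDR summits along eIF5B (upper panel) and eIF4EHP (lower panel) by distance from the 5′ end of the gene (x axis, kb, in the direction of transcription), with the authors' signal on a log scale (y axis) and the gene shaded. The highest summit of eIF5B (2514) lies inside the gene, 16391 bp from its 5′ end, and that of eIF4EHP (10836) at its promoter.

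Genes that work beside the initiation factors gave other shares. Of a list of 28 genes for elongation, release, cap-complex regulation and stress control of translation, 18 were occupied (64.3%), against the 22.9% of all coding genes. The list was chosen by hand with earlier results of these data known, so its share may reflect the choice. In IDR peaks held by all 3 replicates, 14 of the 28 were occupied, against 18.3% of all coding genes. The 28 genes had a median of 2 start sites against 1 for all coding genes and 1 for eIF genes, so they were examined at more positions per gene. With the outermost start alone 16 of the 28 were occupied, against 20.1% of all coding genes. The elongation factors had 4 of 7, eEF1alpha1, eEF1gamma, eEF2 and eEF5, and the release factors eRF1 and eRF3 were both occupied. By symbol, 63 of 88 cytosolic ribosomal protein genes (71.6%), 26 of 73 mitochondrial ones (35.6%) and 10 of 32 aminoacyl-tRNA synthetase genes (31.2%) were occupied. No difference between these lists was tested.

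Several of these genes encode regulators of initiation factors. larp, for a La-related RNA-binding protein, had the strongest site, 342 bp upstream of a start with signal 9595 and rank 26. crc, the fly ATF4 gene, which is translated when eIF2alpha is phosphorylated, had signal 1384. The kinase gene PEK and the phosphatase subunit gene PPP1R15, which act on eIF2alpha in opposite directions, had sites of 300.2 and 294, the latter held by 1 replicate. Thor, for the eIF4E-binding protein 4E-BP, had a site of 263, held by 1 replicate, and Lk6, for a kinase of eIF4E, one of 305. mTor (1061), S6k (293), NAT1 (290, held by 2 replicates), MCTS1 (270, held by 1 replicate), pAbp (1059 and 330) and pix (703) were also occupied. Outside elongation and release 12 of 19 genes were occupied, against 22.9% of all coding genes. A site common to the strongest peaks of all replicates was held by 8 of the 19, against 18.3% of all coding genes.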

How the data were processed

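The study deposited ChIP-seq peak lists on dm6, 1 for each of 3 replicates, 1 for the pooled replicates and 1 of IDR-kept peaks, per the file lists deposited with each library. The caller, aligner and read depth were not named in the labels or files used. The peak signal is the value the authors deposited and was used to describe and rank peaks within a list. The deposited summit offset gave the summit. Genes and start sites came from Ensembl release 115 and sequence from the RefSeq copy of the Release 6 assembly, whose arm lengths hold all peaks. Analysis used Python 3.11.15, pandas 2.3.3 and scipy 1.17.1, and the assignment of summits to genes was tested on simulated data. A replicate peak was matched by an overlap of at least 1 bp, taking the nearest summit. Members, gene lists and motifs were chosen with earlier results of these data known, so no test over members was run and shares stand beside those of all coding genes. Replicates are separate samples of 1 line. Every member is named, and sequences are shown for the strongest summits outside UTRs and outside arm 2R. In the list of other translation genes 28 of 29 symbols matched, 1 of them, Tor, as mTor.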

Additional observations from a re-analysis of the deposited data

How the results depend on the processing

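The count of 11 occupied eIF genes lay between 9 and 16 under 12 of 13 alternatives. It stayed at 11 (25.0%) with a promoter distance of 250 bp, where the share of all coding genes fell from 22.9% to 17.7%, and with the outermost start only, where that share was 20.1%. In the 5119 IDR peaks of highest signal it was 7 (15.9%, against 13.5% of all), without eIF2beta, eIF3m, eIF4A and eIF4G2. Each replicate was also left out in turn, keeping IDR peaks that the strongest peaks of both others overlap. This gave 10 each time (22.7%, against 19.2% to 19.6% of all), without eIF4A. The IDR peaks and signals still came from all 3 replicates, so peak calling without a replicate was not examined. The result follows from 13 of 14 eIF summits being held by all 3 replicates and that of eIF4A by 1. The genes eIF1, eIF2D, eIF3h, eIF4H1, eIF5B and eIF6 were occupied under all 13 settings that name genes. The mean count in the replicates fell from 12.7 to 7.33 with 5119 peaks of each (16.7%, against 13.9% of all). The median signal of 703 was 502 with a promoter distance of 250 bp (614 for all coding genes) and 854 in the 5119 highest peaks (1155 for all). It was 742 under each of the overlap requirements. With these settings the eIF median was below that of all genes, where the main setting has it above. The share of upstream summits, 64.3%, was 53.8% with the outermost start only and 69.2% under each of the overlap requirements. No paired analysis was possible because there is 1 group. Read depth is unknown, so a gene without a summit had none at the depth of these lists, and the lack of a peak does not show that the protein was absent.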

Other observations

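Distances to the nearest IDR summit were taken for eIF genes only, so no value for all coding genes stands beside them. Of the 33 eIF genes without an IDR promoter summit, 7 had one within 2000 bp of a start, and 15 had the nearest more than 10000 bp away (median 9016 bp). The strongest of these neighbouring sites was that of eIF2Bbeta, with signal 13671 and rank 6 of the IDR list. Its summit on X at 2703886 lies 34 bp from the start of Ugalt and 685 bp upstream of eIF2Bbeta, and the peak reaches into the 500 bp before the eIF2Bbeta start. The genes eIF2alpha and eIF4H1 are neighbours on X, and the intronic site of eIF4H1 with signal 703 is also the nearest IDR summit to eIF2alpha, at 1828 bp. The site 1316 bp upstream of eIF3d1 (signal 957) is nearest to GILT2, and that 1345 bp downstream of the start of eIF3g1 (927) is nearest to Smyd3. At the other end, eIF4B on 3L lay 591026 bp from the nearest IDR summit, eIF4G1 on chromosome 4 lay 96582 bp away and eIF3g2 on 3R 79863 bp away. eIF4B nevertheless had a promoter summit in every replicate and in the pooled list.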
